A study of Mus musculus with 21 samples.

Results

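The 8 genes described here belong to the interleukin-25 (IL-25) and type 2 cytokine receptor system and were followed through 21 libraries of sorted mouse epithelial cells. They were chosen by symbol, as 8 of the 43432 gene identifiers counted: Il25, Il17rb, Il17ra, Il4ra, Il13ra1, Il13ra2, Il2rg and Il1rl1. Tuft cells are rare chemosensory epithelial cells that secrete IL-25. IL-25 signals through a receptor of IL-17RB and IL-17RA and activates group 2 innate lymphoid cells (ILC2), which release IL-13. IL-13 and IL-4 bind the receptor of IL-4Rα and IL-13Rα1 in epithelium, and in the intestine this signal expands the tuft lineage. In blood cells IL-4, but not IL-13, binds IL-4Rα paired with the common gamma chain. IL-13Rα2 is a decoy receptor for IL-13, and ST2, the product of Il1rl1, is the receptor of the alarmin IL-33.

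All mice were naive C57BL6.Il25(Flare25/Flare25) animals, in which both Il25 alleles carry a fluorescent reporter. Tuft cells were sorted as viable EPCAM+ cells that lacked CD45 and carried the reporter, from small intestine (n = 3), colon (n = 4), gall bladder (n = 3), thymus (n = 4) and trachea (n = 4). Reporter-negative small intestine epithelium (n = 3) was the only non-tuft group. Each library came from 1 male of 12 weeks, except that each trachea library pooled 4 mice: pool 1 held 12-week-old males, pool 2 males of 16 weeks, pool 3 females of 16 weeks and pool 4 females of 14 weeks. All 19 tuft markers listed averaged at least 1 CPM (counts scaled to library size by TMM) in each of the 5 tuft groups. Their summed level was 5970 to 36700 CPM in tuft libraries and 269 to 501 CPM in non-tuft libraries. Summed gene counts were 25739248 to 73574745 per library, from 130 to 453 sorted cells in trachea, 1350 to 2700 in thymus and gall bladder, and 13500 or more elsewhere. The reads are amplified and carry no molecular identifiers, so counting intervals below cover counting error only. In such bulk samples, fewer cells that express a gene and less RNA per cell cannot be told apart.

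Positions are on mouse build GRCm38. Il25 (ENSMUSG00000040770, 54932695 to 54935837) and Il17rb (ENSMUSG00000015966, 29996135 to 30008896) are both on chromosome 14. Il17ra (ENSMUSG00000002897) is on chromosome 6, from 120463247 to 120487559, Il4ra (ENSMUSG00000030748) on chromosome 7, from 125552120 to 125579474, and Il1rl1 (ENSMUSG00000026069) on chromosome 1, from 40429570 to 40465415. Il13ra1 (ENSMUSG00000017057, 36112110 to 36171259), Il13ra2 (ENSMUSG00000031289, 147383476 to 147429192) and Il2rg (ENSMUSG00000031304, 101264378 to 101268255) are on chromosome X. Il17rb shares 141 exon bases with Actr8 on the other strand, which was at 21 to 72.5 CPM on average, and no source used here says whether counting used strand. Il2rg shares 728 exon bases with Gm20489 on its own strand, which had no count in any library, and Il4ra 571 with Gm44876 on the other strand, for which no level was obtained.

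RefSeq promoters (GRCm38.p6, 250 bases before to 50 after the start) were available for 6 of the 8 genes and are shown so that the receptor genes described below can be compared, with the upstream of 2 starts for Il1rl1. Capitals mark ATGCAAAT, the octamer bound by POU factors such as POU2F3, the factor tuft cells require, and its variant ATGTAAAT, searched on both strands. The Il17rb promoter, on the minus strand, is chr14:30008847-30009146, that of Il4ra, on the plus strand, chr7:125552021-125552320, and the upstream one of Il1rl1, on the plus strand, chr1:40429320-40429619. Il13ra1 is on the plus strand, at chrX:36111858-36112157, and Il2rg and Il13ra2 are on the minus strand, at chrX:101268206-101268505 and chrX:147429143-147429442.
Il17rb: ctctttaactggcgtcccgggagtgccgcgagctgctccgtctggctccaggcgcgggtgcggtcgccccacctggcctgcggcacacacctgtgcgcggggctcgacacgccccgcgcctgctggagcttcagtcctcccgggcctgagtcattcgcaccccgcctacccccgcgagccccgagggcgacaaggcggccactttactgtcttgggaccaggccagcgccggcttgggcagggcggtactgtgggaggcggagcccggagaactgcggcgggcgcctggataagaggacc
Il4ra: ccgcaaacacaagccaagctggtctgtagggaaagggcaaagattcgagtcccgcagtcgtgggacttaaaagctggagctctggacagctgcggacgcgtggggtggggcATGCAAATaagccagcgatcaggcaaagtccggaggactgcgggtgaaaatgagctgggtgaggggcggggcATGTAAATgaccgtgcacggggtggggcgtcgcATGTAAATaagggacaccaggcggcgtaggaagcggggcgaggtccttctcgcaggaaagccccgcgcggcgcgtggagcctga
Il13ra1: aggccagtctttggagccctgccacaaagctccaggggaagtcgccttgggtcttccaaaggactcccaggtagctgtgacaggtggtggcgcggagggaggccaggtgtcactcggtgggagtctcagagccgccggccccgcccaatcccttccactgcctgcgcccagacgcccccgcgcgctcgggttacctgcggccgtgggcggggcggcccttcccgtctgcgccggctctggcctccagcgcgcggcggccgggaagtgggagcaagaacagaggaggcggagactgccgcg
Il1rl1: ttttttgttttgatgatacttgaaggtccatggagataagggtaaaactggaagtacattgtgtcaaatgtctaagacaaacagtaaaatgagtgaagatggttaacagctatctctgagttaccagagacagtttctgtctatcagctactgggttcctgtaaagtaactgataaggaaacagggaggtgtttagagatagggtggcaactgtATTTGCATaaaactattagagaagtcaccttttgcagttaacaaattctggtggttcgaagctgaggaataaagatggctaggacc
Il2rg: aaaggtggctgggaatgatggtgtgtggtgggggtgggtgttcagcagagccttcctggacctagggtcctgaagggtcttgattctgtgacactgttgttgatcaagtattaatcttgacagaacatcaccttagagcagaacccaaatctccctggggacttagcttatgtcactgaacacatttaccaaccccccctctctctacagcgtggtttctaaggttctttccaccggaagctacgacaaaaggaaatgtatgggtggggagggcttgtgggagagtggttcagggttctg
Il13ra2: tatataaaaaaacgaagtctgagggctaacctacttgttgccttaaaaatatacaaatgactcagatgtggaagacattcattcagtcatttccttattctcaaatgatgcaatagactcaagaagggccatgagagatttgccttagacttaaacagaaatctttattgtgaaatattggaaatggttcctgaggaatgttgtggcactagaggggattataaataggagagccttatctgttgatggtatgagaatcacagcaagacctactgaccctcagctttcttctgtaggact
The Il4ra promoter held 1 octamer, beginning 139 bases before the RefSeq start, and 2 variants at 67 and 34 bases before it. The Il4ra gene position given above begins at 125552120, inside this window and upstream of all 3 matches. Of 32851 promoters of this length, 8 (0.024%) held 3 or more such matches, and 3.04% held any. The cutoff of 3 equals the count found in Il4ra, the most of any window searched for these 6 genes. The share at that cutoff is therefore a description and no test. The upstream Il1rl1 promoter held 1 octamer on its minus strand, 36 bases before the start. Neither motif was in the Il17rb, Il13ra1, Il2rg or Il13ra2 window, nor in that of the second Il1rl1 start. TTC and GAA spaced by 4 bases, the form of site bound by STAT6, was in none of the windows of these 6 genes and in 6.95% of all promoters. These matches describe letters, not binding.

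Il25, the ligand, was present in all 18 tuft libraries. The reporter sits in this gene, so its excess over non-tuft cells (0.161, 0.223 and 0.448 CPM) was set by the sort and is no result. Small intestine tuft libraries held 24.2, 26.3 and 21.1 CPM and colon libraries 8.35, 3.51, 14.5 and 10.6 CPM. Gall bladder libraries held 23.6, 42.4 and 8.17 CPM, thymus libraries 34.7, 32.1, 8.91 and 9.16 CPM, and trachea pools 40.5, 10.7, 14.3 and 63.3 CPM. Spread within gall bladder, thymus and trachea covered most of the range, and of the tissue pairs only small intestine and colon did not overlap. From trachea (32.2 ± 24.6 CPM, SD, n = 4) to colon (9.23 ± 4.59, n = 4), no neighbouring tissues in the order of means were called different. None of the 10 tissue pairs was called for Il25, and the test of any difference between tissues gave an adjusted p of 0.232. Colon against the mean of the other tissues gave a log2 fold change of -1.46 (SE 0.59, adjusted p = 0.0985 in edgeR). With DESeq2 (-1.51, adjusted p = 0.0224) or weighted limma (-1.32, adjusted p = 0.0483) the colon difference passed the call rule of an adjusted p under 0.05 and at least 2-fold.

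**Figure D1:**
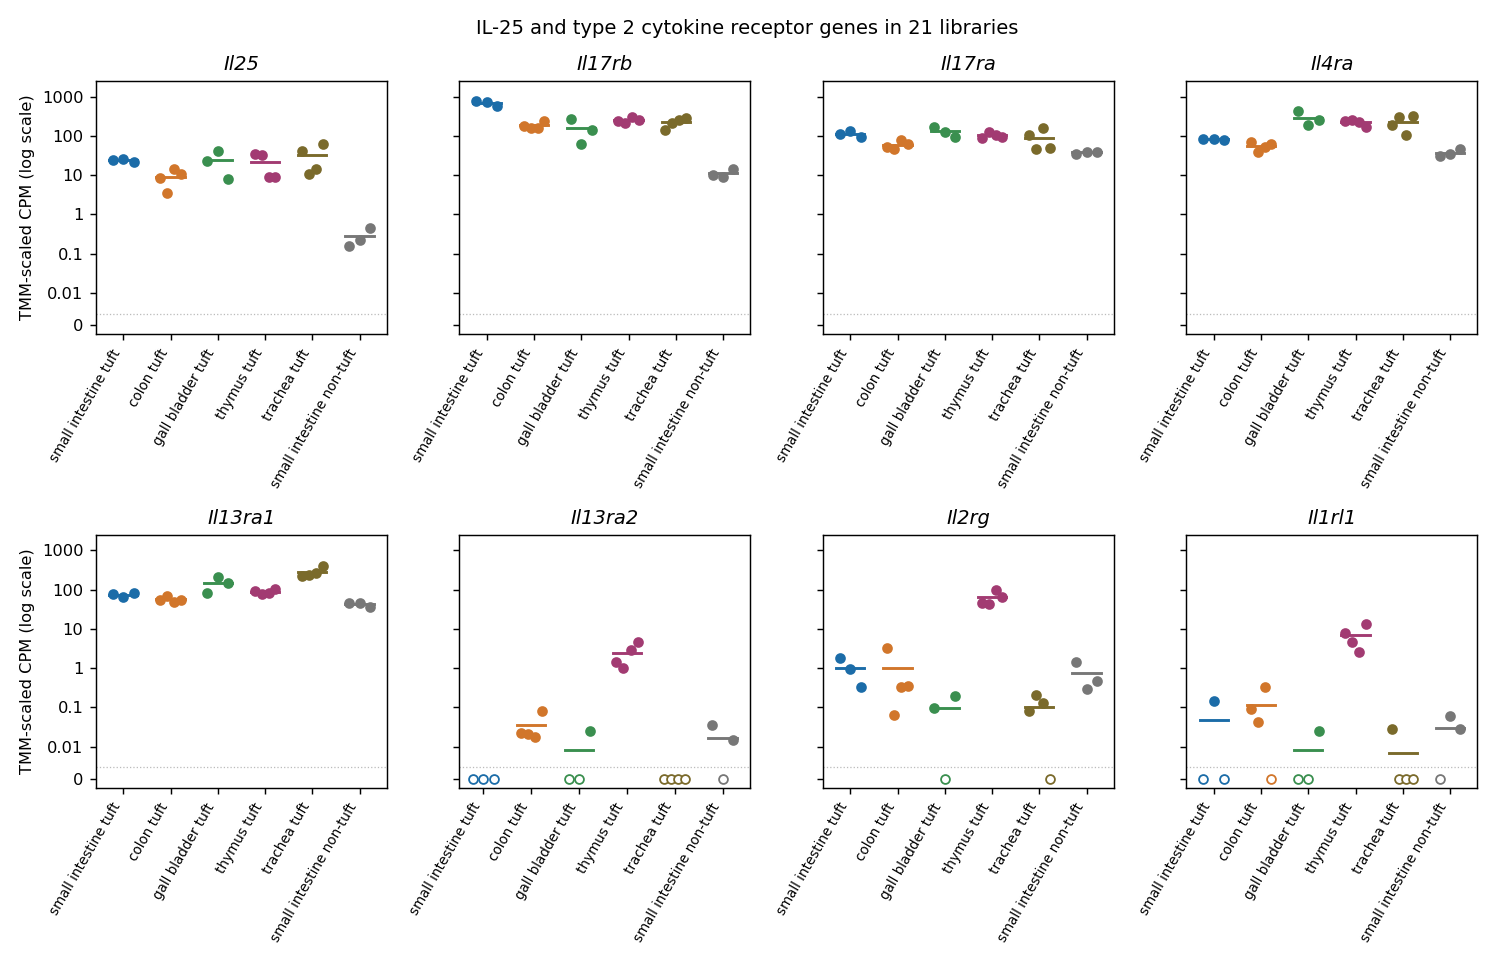
Level of each of the 8 genes in the 21 libraries, as TMM-scaled CPM on a log axis; each filled point is 1 library, open points at the bottom are libraries with no count, and short bars are group means. Il17rb is highest in the 3 small intestine tuft libraries (574 to 769.5 CPM), and Il13ra2, Il2rg and Il1rl1 are highest in the 4 thymus libraries.

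Il17rb, the chain that binds IL-25, had the largest small intestine tuft excess over non-tuft cells among the 5 receptor genes tested there, and among tuft tissues was highest in the small intestine. It was at 769.5, 716 and 574 CPM in small intestine tuft and at 10.2, 9.26 and 14.7 CPM in non-tuft libraries, with no overlap. The log2 fold change was 6.01 (SE 0.23, adjusted p = 4.94e-08, 3 against 3 libraries). Of the 6 members tested in this comparison, 4 were called higher (Il25 among them) and 0 lower, against 13.0% and 13.9% of all 16063 genes tested, 26.9% in either direction. Colon libraries held 184, 163, 157 and 235 CPM, gall bladder libraries 270.3, 61.4 and 140.2 CPM, thymus libraries 244, 217, 309 and 254 CPM, and trachea pools 143, 211, 252 and 279 CPM. Every small intestine library lay above every other tuft library, while the other 4 tissues overlapped one another. Enterocyte markers summed to 22200 to 26800 CPM in small intestine tuft, 12200 to 14300 CPM in non-tuft and 919 CPM or less in other tuft libraries. Their part in the Il17rb level was not tested.

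Against the mean of the other tissues, small intestine tuft Il17rb was 1.79 higher on the log2 scale (SE 0.26, adjusted p = 4.33e-05), 1.68 to 1.99 with any 1 library left out. It was the only member called higher there; Il4ra was called lower. Of 19850 genes, 10.0% were called higher and 7.45% lower there, 17.5% in either direction. Relative to small intestine, the log2 fold change was -1.92 in colon (adjusted p = 0.00124), -2.12 in gall bladder (adjusted p = 0.000952), -1.43 in thymus (adjusted p = 0.0058) and -1.69 in trachea (adjusted p = 0.00136). The next 4 means, in thymus (256 ± 38.9 CPM, SD, n = 4), trachea (221 ± 59.4, n = 4), colon (185 ± 35.6, n = 4) and gall bladder (157 ± 106, n = 3), were not called different between neighbours. Without gall bladder replicate 1, its highest library, the log2 fold change of gall bladder against the other tissues was -1.47 (adjusted p = 0.003), where all libraries gave -0.86 (adjusted p = 0.0522). In the fit of all 21 libraries, Il17rb was called higher in each of the 5 tuft tissues than in the non-tuft reference, with log2 fold changes of 3.83 to 5.95. Of all 20335 genes, 1.31% showed that pattern. Il25 was called in all 5 as well, which the sort set. Members called, Il25 counted in each, against the reference numbered 3 of 8 in small intestine (6.51% of all genes), 2 in colon (7.67%), 5 in gall bladder (26.0%), 7 in thymus (27.5%) and 5 in trachea (31.2%), all higher, and the thymus count includes Il13ra2 and Il1rl1, which entered the fit through thymus. Il17ra was called in 4 tissues (not colon), Il4ra in gall bladder, thymus and trachea, Il13ra1 in gall bladder and trachea, and Il13ra2, Il2rg and Il1rl1 in thymus. The Il17ra call was lost in small intestine without small intestine tuft replicate 3 (adjusted p = 0.0516) or non-tuft replicate 1 (adjusted p = 0.0656), and in trachea without non-tuft replicate 1 (adjusted p = 0.0638) or pool 3 (adjusted p = 0.0606). Outside the small intestine, tissue and cell type cannot be told apart in this comparison, and the 5 tissues share their reference.

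Il17ra, the shared signalling chain of the IL-17 receptor family, was also higher in small intestine tuft than non-tuft cells, but varied less between tissues. It was at 115, 132 and 96.0 CPM in small intestine tuft and 34.5, 39.5 and 39.7 CPM in non-tuft libraries. The log2 fold change was 1.69 (SE 0.15, adjusted p = 1.34e-05), and the groups did not overlap. Colon libraries held 53.4, 47.0, 79.0 and 60.7 CPM and gall bladder libraries 166, 129 and 95.6 CPM. Thymus libraries held 89.5, 125, 109 and 96.2 CPM and trachea pools 108, 46.8, 155 and 49.4 CPM. Trachea alone spanned most of this range. The test of any tissue difference gave an adjusted p of 0.0862, and no neighbours in the order of means were called different. Of the pairs, only gall bladder against colon was called (1.15 higher on the log2 scale, SE 0.37, adjusted p = 0.0373). That call was lost without any 1 of small intestine replicates 2, 3 or 4, colon replicates 1, 2 or 4, gall bladder replicates 1 or 3, or thymus replicate 3 (0.94 to 1.16, adjusted p = 0.0515 to 0.137). Colon against the mean of the others gave -0.87 (SE 0.29, adjusted p = 0.0461), short of 2-fold.

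The balance of both chains of the IL-25 receptor was compared per kilobase of merged exons, as a log2 ratio in each library. Il17rb exceeded Il17ra by 3.82 ± 0.15 (SD, n = 3) in small intestine tuft, 2.86 ± 0.44 in colon, 2.67 ± 1.05 in trachea and 2.51 ± 0.33 in thymus (n = 4 each). In gall bladder it was 1.29 ± 0.98 (n = 3), from 0.16 in replicate 3 to 1.93. In non-tuft epithelium Il17rb was the less abundant chain, at -0.54 ± 0.33 (n = 3). All 18 tuft libraries thus had more Il17rb than Il17ra per kilobase and the 3 non-tuft libraries had less. With the longest transcript as gene length, every value rose by 0.37, and 1 of the non-tuft libraries passed 0 (highest value 0.15).

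**Figure D2:**
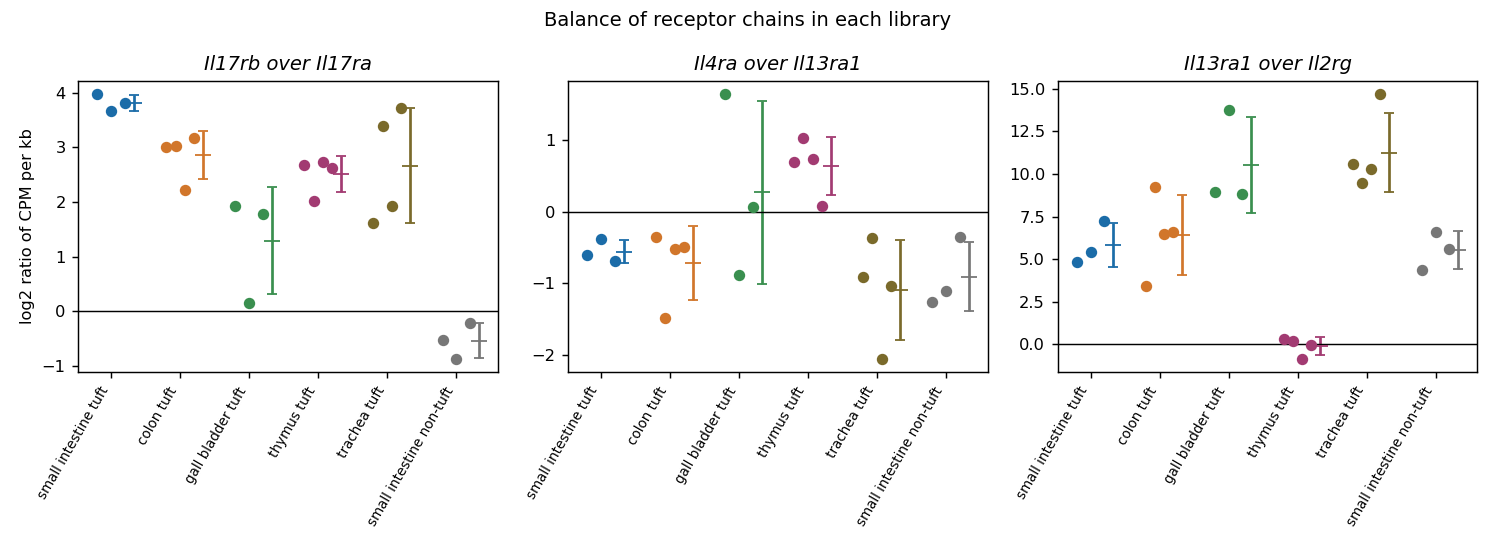
Log2 ratios of CPM per kilobase of merged exons for 3 pairs of receptor chains. Each point is 1 library, and bars beside the points are the group mean ± SD. An offset of 0.01 CPM was added before the ratio. Il17rb exceeds Il17ra in all tuft libraries, and the ratio of Il13ra1 to Il2rg is near 0 in thymus (-0.09 ± 0.52) and above 3 in all other libraries.

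Il4ra, the chain shared by the IL-4 and IL-13 receptors, split the tuft tissues into a low pair and a high set. The intestinal libraries were low, with 84.3, 81.6 and 80.2 CPM in small intestine and 69.9, 40.1, 53.5 and 63.2 CPM in colon. Gall bladder libraries held 422, 188 and 249 CPM and thymus libraries 237, 251, 226 and 173 CPM. Trachea pools held 194, 299.9, 103 and 321 CPM. No gall bladder, thymus or trachea library fell as low as any intestinal one. The 6 pairs across this split were the 6 of 10 called for Il4ra. Gall bladder was higher than small intestine by 1.80 and than colon by 2.37, thymus by 1.44 and 2.00, and trachea by 1.43 and 1.99 on the log2 scale (adjusted p = 9.67e-05 to 0.00673). Within the high set the means, 286 ± 121 (gall bladder, n = 3), 229 ± 101 (trachea, n = 4) and 222 ± 34.1 (thymus, n = 4), were not called different between neighbours.

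Against the mean of the other tissues, Il4ra had a log2 fold change of -1.73 in colon (SE 0.29, adjusted p = 0.000239) and of 1.23 in gall bladder (SE 0.26, adjusted p = 0.00233). In colon, Il4ra and Il13ra1 were called lower and 0 members higher, against 5.78% and 10.7% of all genes and 16.5% in either direction. Calls over all genes split differently in DESeq2, which changes both scaling and test, with 51.3% of them higher in colon (64.9% in edgeR), 42.5% in small intestine (57.4%) and 41.7% in gall bladder (59.1%). In gall bladder, Il4ra was the member called higher and Il2rg the one called lower, against 12.7% and 8.79% of all genes, 21.5% in either direction. The gall bladder call was lost without gall bladder replicate 1 (0.87, adjusted p = 0.0471). Small intestine gave -1.03 (SE 0.31, adjusted p = 0.0254), at the edge of the 2-fold rule. This last call was lost without any 1 of 10 libraries, at -1.06 to -0.89 (small intestine replicates 2, 3 and 4, colon 1, gall bladder 1, thymus 1, 2 and 3, trachea 2 and 4). Thymus (0.77, adjusted p = 0.0201) and trachea (0.76, adjusted p = 0.0232) were higher by less than 2-fold, and trachea reached 1.01 (adjusted p = 0.00174) without pool 3. In small intestine, tuft cells had 1.22 more Il4ra than non-tuft cells (31.4, 35.2 and 46.4 CPM) on the log2 scale (SE 0.16, adjusted p = 0.000203). In the fit of all 21 libraries the same difference was 1.16 and missed the call (adjusted p = 0.0559).

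Il13ra1, the partner of IL-4Rα in epithelium, was highest in the trachea. Trachea pools held 227, 240.3, 264 and 409.7 CPM, all above every library of the other tissues. Gall bladder libraries held 83.7, 215 and 148 CPM and thymus libraries 90.8, 75.9, 83.8 and 101 CPM. Small intestine tuft libraries held 79.5, 65.7 and 79.9 CPM and colon libraries 55.1, 69.3, 47.6 and 55.2 CPM. Trachea was 1.68 higher than the mean of the others (SE 0.20, adjusted p = 3.73e-06), and colon gave -1.20 (SE 0.24, adjusted p = 0.00127). Il13ra1 was the member called higher in trachea and Il2rg the one called lower, against 17.3% and 13.7% of all genes and 31.0% in either direction. Il13ra1 is X-linked, and the 2 female pools held 264 and 409.7 CPM against 227 and 240.3 CPM in the males. Without both female pools trachea was still 1.45 higher (adjusted p = 0.000309).

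Of the Il13ra1 pairs, trachea exceeded colon (2.30), small intestine (1.87) and thymus (1.64), and gall bladder exceeded colon (1.42), all on the log2 scale with adjusted p = 7.23e-06 to 0.00233. Trachea exceeded gall bladder by 0.89 (SE 0.31, adjusted p = 0.0396), which is under 2-fold, and the neighbours gall bladder, thymus, small intestine and colon were not called different. In small intestine, tuft cells exceeded non-tuft cells (46.6, 46.8 and 36.8 CPM) by 0.89 (SE 0.15, adjusted p = 0.00104), with no overlap but under 2-fold. Airway markers moved with trachea, with 5 of 5 markers at 1 CPM or more and a summed level of 13500 to 66500 CPM against 659 or less in other tuft libraries. Their part in the Il13ra1 level was not tested.

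Per kilobase, the log2 ratio of Il4ra to Il13ra1 was -0.56 ± 0.16 in small intestine tuft, -0.71 ± 0.52 in colon, -1.10 ± 0.70 in trachea and -0.91 ± 0.48 in non-tuft cells. In thymus it was 0.64 ± 0.40, and gall bladder ran from -0.89 to 1.64. Thymus was the group in which Il4ra exceeded Il13ra1 in all 4 libraries.

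**Figure D3:**
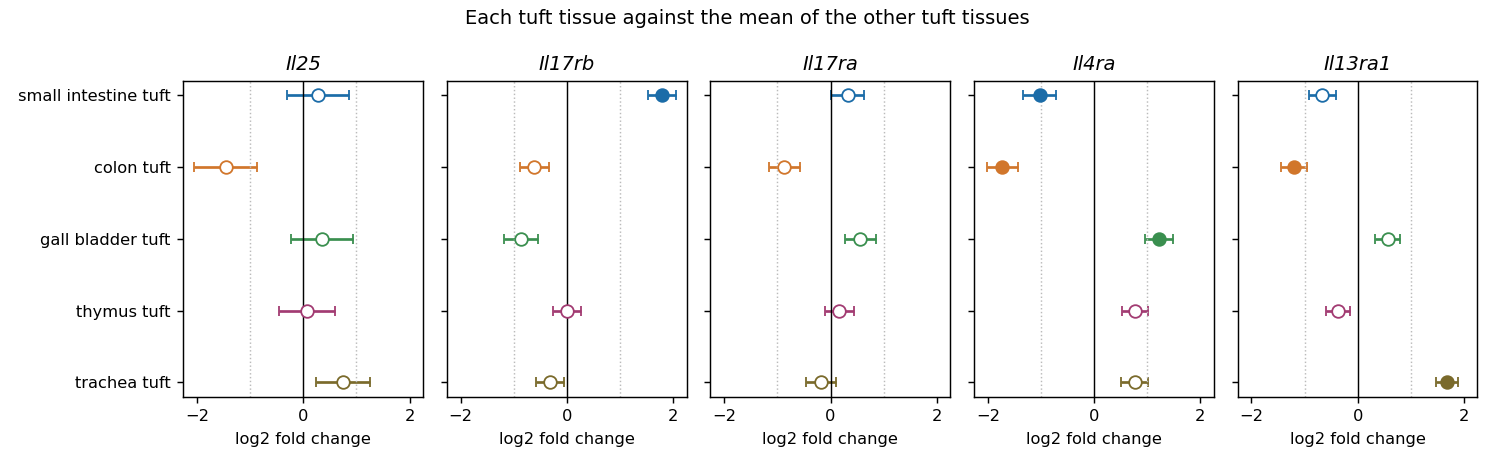
Log2 fold change of each tuft tissue against the unweighted mean of the other 4, for Il25 and 4 receptor genes; points are estimates from 18 libraries, bars are 1 SE, filled points passed the call rule and dotted lines mark 2-fold. Small intestine stands out for Il17rb (1.79) and trachea for Il13ra1 (1.68).

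Il2rg, Il1rl1 and Il13ra2 were each higher in every thymus library than in any library of the other groups, at levels that differed between the genes. Il1rl1 and Il13ra2 passed the count filter through thymus, and 26.8% of all genes were called higher there. The share of all genes separated in this way is not given here, so nothing is read from the number of members. Il2rg encodes the common gamma chain, which receptors for IL-2, IL-4, IL-7, IL-9, IL-15 and IL-21 share. It was at 46.8, 42.4, 96.8 and 66.8 CPM in thymus (63.2 ± 24.8, SD, n = 4). Small intestine tuft libraries held 1.82, 0.978 and 0.326 CPM, and colon libraries 3.25, 0.0649, 0.341 and 0.361 CPM. Gall bladder libraries held 0.0981, 0 and 0.200 CPM, trachea pools 0.0828, 0.212, 0.126 and 0 CPM, and non-tuft libraries 1.43, 0.304 and 0.477 CPM. The lowest thymus library was thus above the highest of all others, which was colon replicate 1. Pooled over libraries, thymus Il2rg was 61.3-fold above small intestine tuft (95% exact counting interval 51.8 to 73.1) and 493-fold above trachea (322 to 797).

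Il1rl1 (ST2) was at 7.92, 4.58, 2.62 and 13.1 CPM in thymus. Outside thymus its highest library was 0.323 CPM, in colon, and the summed counts were 24 in colon, 6 in small intestine tuft, 5 in non-tuft, 1 in gall bladder and 1 in trachea, against 1534 in thymus. Il13ra2, the decoy receptor, was at 1.40, 0.996, 2.92 and 4.54 CPM in thymus (556 counts). It had no count in small intestine tuft or trachea, 7 counts in colon, 1 in gall bladder and 3 in non-tuft libraries. With 3 counts over the group as the floor, thymus Il13ra2 was at least 106-fold higher than small intestine tuft and at least 130-fold higher than trachea.

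Il13ra2 and Il1rl1 passed the count filter between tuft tissues through the thymus libraries, so they had to be high there, and their thymus calls are no test. They were not tested between small intestine tuft and non-tuft cells, where Il2rg was. In thymus against the mean of the other tissues, Il2rg was called higher (adjusted p = 2.87e-07), and it exceeded each of the 4 other tissues in the pair tests (adjusted p = 7.7e-05 to 0.00297). With Il13ra2 and Il1rl1 the members called higher numbered 3, and 0 were lower, a count from which nothing is read. Of all genes, 26.8% were called higher in thymus and 5.64% lower, 32.4% in either direction, and the median log2 change of all genes was 0.33. The fitted fold changes of these 3 genes rest on low denominators, so the counts above carry their size. Il2rg was also called lower in gall bladder (adjusted p = 0.0216) and trachea (adjusted p = 0.00724) than in the mean of the others, a mean that includes thymus. The gall bladder call was lost without gall bladder replicate 1 (adjusted p = 0.0787) or replicate 3 (adjusted p = 0.0808), and the trachea call without both female pools (adjusted p = 0.0644). Trachea was also called below small intestine (adjusted p = 0.0358) and colon (adjusted p = 0.035) for Il2rg, at group means of 1.04 CPM or lower. The first of these calls was lost without any 1 of small intestine replicates 2 or 3, thymus replicates 1 or 3, or trachea pools 1, 3 or 4 (adjusted p = 0.0501 to 0.1533). The second was lost without colon replicate 1 (log2 fold change -1.17, adjusted p = 0.3903), thymus replicate 3 or trachea pools 1, 3 or 4.

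The low levels outside thymus were set beside those of 9 other genes that were high in thymus, chosen after their values were seen (Il13, Il5ra, Csf2rb, Il2ra, Serpinb2, Ccl11, Aire, Fezf2 and Foxn1), each as a percentage of its thymus mean. In non-tuft libraries the 9 genes were at 0.452% to 0.705%, and Il1rl1 was at 0.423%, Il13ra2 at 0.679% and Il2rg at 1.17%. In colon the means of the 3 members, at 1.45% to 1.62%, were all above the 9 genes, at 0.457% to 1.18%. Each of these member means rests mostly on 1 colon library. Replicate 1 held 143 of 183 Il2rg counts, replicate 3 held 18 of 24 Il1rl1 counts and replicate 4 held 4 of 7 Il13ra2 counts. The colon percentages therefore do not place the members above the 9 genes. In small intestine tuft the 9 genes were at 0% to 0.900% and the members at 0% to 1.65%, with Il2rg the highest. Gall bladder gave 0.138% to 0.281% for the 9 genes and 0.118% to 0.338% for the members, and trachea 0.0127% to 0.664% and 0% to 0.166%. Whether these low counts came from the sorted cells was not tested.

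The chains available to IL-4 differed in balance. Per kilobase of merged exons, the log2 ratio of Il13ra1 to Il2rg was -0.09 ± 0.52 (SD, n = 4) in thymus, about equal levels by this length. With the longest transcript as gene length it was -0.60 ± 0.52, from -1.36 to -0.20, with more Il2rg in all 4 libraries. The values that follow use merged exons. It was 5.83 ± 1.28 in small intestine tuft, 6.42 ± 2.36 in colon, 5.52 ± 1.10 in non-tuft cells, 10.5 ± 2.81 in gall bladder and 11.3 ± 2.34 in trachea. In gall bladder and trachea 1 library each had under 3 Il2rg counts, so the upper values rest on the 0.01 CPM offset. Every library outside thymus had at least 3.44 more Il13ra1 on this scale, and at least 2.93 more with the longest transcript.

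Markers of other cell types that can carry Il2rg or Il1rl1 were summed in each library. The cells were gated CD45-negative. In thymus the T cell list (6 of 11 at 1 CPM or more) summed to 9.60 to 37.2 CPM, and in small intestine tuft (4 of 11) to 20.0 to 32.0 CPM. In thymus Cd3d averaged 0.485 CPM and Cd3e 1.72 CPM, so other markers of the T cell list made most of its sum there. The levels of those other markers are not given here, so Cd3d and Cd3e do not stand for the list. The ILC2 list summed to 291 to 406 CPM in thymus (7 of 9), of which Il13 (232 CPM) and Rora (80.6 CPM) made most. Gata3 was at 7.11 CPM there. Klrg1 (0.575 CPM) and Ptgdr2 (0) were the only markers of this list under 1 CPM in thymus. Every ILC2 marker not named here was at 1 CPM or more, so Klrg1 and Ptgdr2 do not stand for the list. The myeloid list summed to 111 to 141 CPM (10 of 10), with the upper ends of gall bladder (129) and trachea (159) in the same range, and the stromal list to 30.0 to 145 CPM (7 of 7). Thymic epithelial markers summed to 1320 to 1530 CPM (6 of 6) against 122 or less in all other libraries. The mast cell and basophil list summed to 163 to 294 CPM in thymus (3 of 6), of which Kit made 209.8 CPM on average. Fcer1a (1.84 CPM) was also among the markers at 1 CPM or more, and Cpa3 (0.247) and Mcpt8 (0) were among those under it. Not every marker of this list is named here. The same list summed to 196 to 394 CPM in gall bladder (1 of 6) and 166 to 539 CPM in trachea (1 of 6). The B cell list summed to 21.6 to 38.3 CPM in thymus (3 of 4) and the endothelial list to 42.9 to 120 CPM (2 of 4). The part of T cell, ILC2, mast cell, myeloid, B cell, stromal, endothelial and thymic epithelial transcripts in the thymus results was not tested.

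Across the 10 tissue pairs, 29 of 80 member tests were called, 8 of them of thymus for Il13ra2 and Il1rl1. By pair, the count of members called was 1 for colon against small intestine (8.36% of all genes), 2 for gall bladder against small intestine (14.8%), 5 for thymus against small intestine (25.7%) and 4 for trachea against small intestine (27.8%). It was 3 for gall bladder against colon (18.2%), 4 for thymus against colon (25.6%) and 3 for trachea against colon (27.1%). Thymus against gall bladder gave 3 (30.6%), trachea against gall bladder 0 (23.8%) and trachea against thymus 4 (27.9%). The test of any tissue difference was passed by 6 of the 8, all but Il25 and Il17ra, against 56.7% of all genes, and 2 of the 6 are Il13ra2 and Il1rl1. Trachea and gall bladder thus had no member called between them by edgeR, although Il13ra1 (adjusted p = 0.0396) passed the p-value without reaching 2-fold.

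The 5 lists of 78 other genes of these pathways gave the surroundings of the receptors: ligands, other receptor chains, signal transducers, inhibitors and epithelial target genes. In thymus 38 of 72 tested were called higher and 1 lower, with a median log2 change of 1.27 beside 0.33 for all genes, of which 26.8% were called higher and 5.64% lower. Some list genes passed the count filter through thymus, among them Il5, Il5ra, Il7r and Postn, at 0.147 CPM or less on average in each other tuft group. Their thymus calls are no test, and nothing is read from the thymus counts and median that include them. Il13, the ligand of the IL-4Rα and IL-13Rα1 receptor and of the decoy, was at 232 ± 58.8 CPM in thymus and at most 1.09 CPM on average in any other group. Il13 also belongs to the ILC2 marker list. Of 13 other receptor chains, 8 were called higher and 0 lower, among them Csf2rb, the shared beta chain of the IL-3, IL-5 and GM-CSF receptors (123 ± 27.9 CPM), Il2ra (29.9 ± 9.75) and Il5ra (24.5 ± 3.02). Csf2rb has a close paralog, so its reads may be shared. Stat5a, a transducer of common gamma chain signals, was at 73.0 ± 8.09 CPM in thymus and 7.27 or less on average elsewhere. The inhibitors Cish (82.3 ± 14.8 CPM) and Socs1 (15.2 ± 2.20), both products of cytokine signalling, were called higher as well. Of 16 target genes 10 were called higher, including Serpinb2 (175 ± 11.7 CPM), the chemokine Ccl11 (122 ± 23.0) and the lipoxygenase Alox15 (109 ± 23.6).

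**Figure D4:**
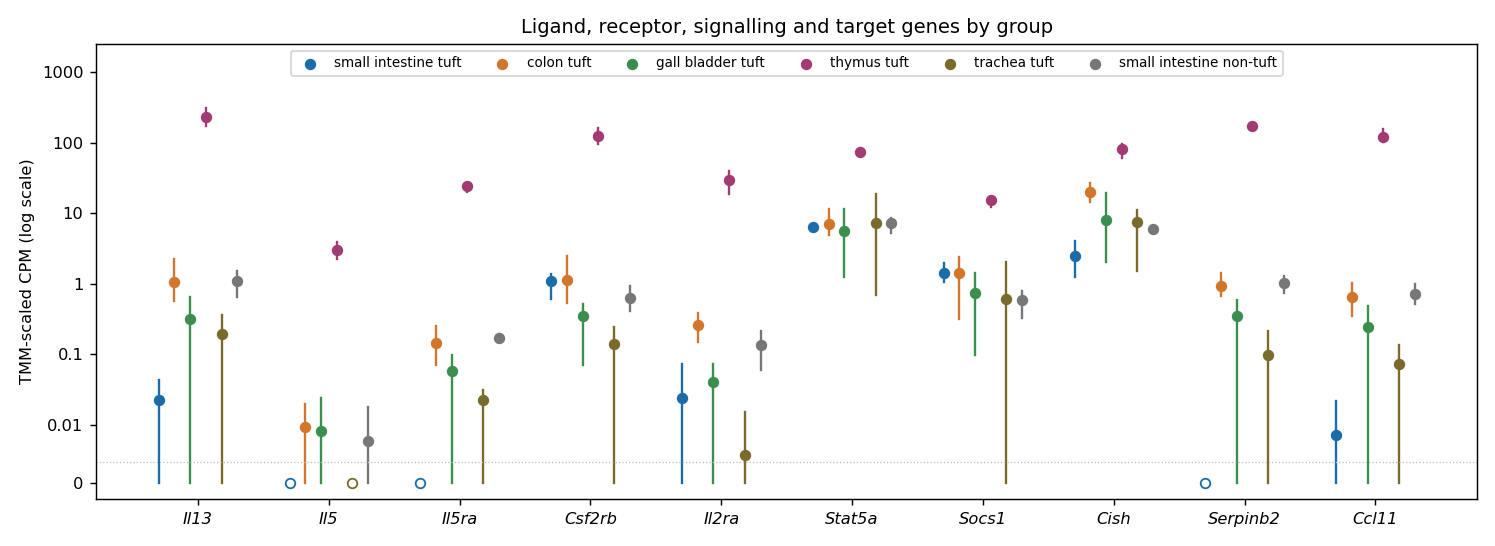
Mean TMM-scaled CPM (points) and range over libraries (lines) of 10 ligand, receptor, signalling and target genes in the 6 groups, on a log axis with 0 at the bottom. All 10 are list genes called higher in thymus, so that thymus is highest for each follows from their choice. List genes highest elsewhere, such as Ptpn6 in small intestine and Il17re in gall bladder, are not shown. Il13 averages 232 CPM in thymus and Csf2rb 123 CPM.

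In the small intestine, 9 of 61 list genes tested were called higher in tuft than non-tuft cells and 11 lower (median -0.22 beside -0.03 for all genes), with 13.0% of all genes called higher and 13.9% lower, so the lists as a whole lay near the background. Ptpn6, the phosphatase SHP-1, was at 954 ± 223 against 18.6 ± 2.77 CPM (n = 3 each). Il9r, which pairs with the common gamma chain, was at 35.4 ± 9.84 against 0.769 ± 0.153 CPM, although Il2rg itself was at 1.04 ± 0.749 against 0.737 ± 0.606 CPM (log2 change 0.58, SE 0.82, adjusted p = 0.602). The alarmin Tslp was at 8.66 ± 2.14 against 0.147 ± 0.0909 CPM. Il33, the ligand of ST2, was called lower in tuft cells (5.40 ± 1.90 against 18.8 ± 3.67 CPM). In the fit of all 21 libraries Tslp (adjusted p = 0.0599) and Il33 (adjusted p = 0.56) were no longer called. Of 11 target genes tested, 7 were called lower and 0 higher. They include the goblet and Paneth cell products Clca1 (277 against 10340 CPM), Itln1 (85.6 against 2551) and Ang4 (10.9 against 443), and the goblet marker list summed to 1830 to 2170 CPM in tuft and 92000 to 102000 CPM in non-tuft libraries. Serpinb2 and Ccl11, also called lower, and the ligand Il13 are among the genes whose low non-tuft counts were described above.

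In small intestine tuft against the other tissues 6 of 72 were called higher and 11 lower (10.0% and 7.45% of all genes), with Ptpn6 (1.56 higher, adjusted p = 1.01e-05) and Il9r (2.74 higher, adjusted p = 0.000255) rising and Il17re, a chain of the IL-17C receptor, at 0.600 CPM against 49.0 in the others. Without small intestine replicate 4 the count was 11 instead of 17. In colon 4 were called higher and 3 lower (10.7% and 5.78% of all genes), 4 in all without colon replicate 2, and Ptpn6 was lower (172 against 567 CPM). In gall bladder 8 were called higher and 8 lower (12.7% and 8.79% of all genes), 9 in all without gall bladder replicate 3. Il17re was at 106 ± 71.4 CPM there, and Il2rb ranged from 5.01 to 216 CPM over its 3 libraries. In trachea 13 were called higher and 17 lower (17.3% and 13.7% of all genes), 19 in all without both female pools. Il1rap, the co-receptor of ST2, was at 32.7 ± 25.2 CPM in trachea against 6.82 in the others, a call lost without pool 2 (adjusted p = 0.0936). Jak3, the kinase that binds the common gamma chain, was called higher in trachea (27.9 ± 25.0 CPM, log2 fold change 1.97, adjusted p = 0.0141), a call lost without pool 2 (1.22, adjusted p = 0.162). Traf3ip2, the adaptor Act1 of IL-17 family receptors, was called higher there too (90.4 ± 61.7 CPM, 1.06, adjusted p = 0.015), a call lost without pool 1 (0.56, adjusted p = 0.1945). Il33 had 4 counts in trachea, and the IL-17 receptor chain Il17rc was at 6.44 ± 5.05 against 31.4 CPM. The kinases and transducer below IL-4Rα were detected in every group: Stat6 averaged 113 to 286 CPM, Jak1 146 to 206 CPM and Jak2 43.7 to 125 CPM.

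The genes most like each member across the 18 tuft libraries were taken among 9614 genes by Pearson correlation of log2 CPM, with 1 CPM added, and given as a description, since libraries of a tissue share its whole profile. For Il17rb these were Fmo5 (r = 0.912), Lgals3bp and Dhrs4 (0.884 each). For Il4ra they were Ccdc88a (0.944), Pcolce2 (0.931) and Inafm2 (0.915), and for Il13ra1 Pik3cg (0.935), Tmem231 (0.926) and Smarca2 (0.919). Il2rg was closest to Csf2rb (0.994), Myo3b (0.988) and Fabp5 (0.984), and Il1rl1 to Sprr1b (0.987), Serpina7 (0.984) and Prg4 (0.976). Il25 had the lowest top values, with Atp6v1h (0.741) and Pgm1 (0.737), and Il17ra lay between, with Pradc1 (0.849), Gnai2 (0.834) and Rnf157 (0.820). Among the members, Il2rg, Il1rl1 and Il13ra2 correlated with each other at r = 0.92 to 0.93, while Il25 and Il17rb gave r = 0.08 and Il4ra and Il13ra1 r = 0.56. Each of these values is over 18 libraries of 5 tissues and carries no test. Il13ra2 stayed under 5 CPM and was not ranked.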

How the data were processed

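Poly(A) RNA of sorted cells was amplified with NuGEN Ovation V2 and prepared with Nextera XT, per the labels' protocols. The authors deposited raw read counts per gene for each of the 21 libraries. STAR, DESeq2 and GRCm38 are named in the submitters' processing notes, and no source used here states the strand setting or annotation used for counting. Gene names came from GENCODE M21 for 42462 of 43432 identifiers, and the other 970 held 0.116% of counts. The design text states that 1 small intestine tuft, 1 gall bladder and 1 non-tuft library were discarded by the submitters.

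Counts were scaled by TMM and tested with edgeR 4.0.16 (quasi-likelihood, filterByExpr, R 4.3.3), adjusted by Benjamini-Hochberg over all genes in each contrast. A call needed an adjusted p under 0.05 and at least 2-fold. Small intestine tuft and non-tuft libraries were fitted alone, the 18 tuft libraries together, and all 21 libraries for comparisons with the non-tuft reference. Alternatives were DESeq2 1.42.0, limma 3.58.1 with sample weights, other scalings and filters, a replicate block, removal of mitochondrial transcripts, of both female trachea pools, and of each library in turn. Scripts were tested on simulated counts. Sequences came from RefSeq (GRCm38.p6). Figures used matplotlib 3.10.9.

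The 8 genes, 5 pathway lists and 16 marker lists were chosen with earlier results of these data known. Values are given for every member. Of the lists, named genes are the called ones with the largest change, up to 3 each way per list and comparison, and Jak1, Jak2, Jak3, Stat6, Traf3ip2, Il17rc, Il1rap, Il33, Tslp and Socs1. Any other list gene was named after its values were seen. Likeness used the 3 highest correlations per member. One of these genes is not reported here. Each library held a single mouse or, in trachea, a pool of 4 mice. Whether libraries of different groups, such as small intestine tuft and non-tuft, came from the same mice is not known here.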

Additional observations from a re-analysis of the deposited data

Results flagged for a closer look

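Il2rg in colon tuft cells had 1 library far from the others: replicate 1 was at 3.25 CPM, while the other colon libraries were at 0.0649, 0.341 and 0.361 CPM. The gap to the nearest library exceeded the 95% critical value of Dixon's test for 4 samples. With 21 groups of 4 examined, chance flags about 1 in 20. Without this library the Il2rg difference between trachea and colon was no longer called (log2 fold change -1.17, adjusted p = 0.3903 in edgeR).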

How the results depend on the processing

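Of 15 called member results (Il25 against non-tuft cells and Il13ra2 and Il1rl1 in thymus among them), refitted 341 times, 318 refits kept the call, 23 lost it and 0 changed direction; the cause was not tested. Members called in small intestine against other tissues numbered 2, and 1 with upper quartile scaling, no filter, no mitochondrial transcripts or the replicate block (1 to 2 leaving out 1 library). In gall bladder they numbered 2, and 1 with the replicate block or weighted limma (1 to 2 leaving out 1 library). In trachea they numbered 2, and 1 with weighted limma or without both female pools. The counts of 3 members and 39 list genes called in thymus, both with genes that passed the filter through thymus, stayed within 1.5 times under all alternatives run.

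List genes called in small intestine tuft against non-tuft numbered 20, with 13 under a filter of 5 CPM in 3 libraries and 11 in the fit of 21 libraries. Against other tissues small intestine gave 17, with 28 by weighted limma and 11 at the lowest leaving out 1 library. Colon gave 7, with 17 by DESeq2, 16 by weighted limma and 4 at the lowest. Gall bladder gave 16, with 10 under the replicate block, 6 by weighted limma and 9 at the lowest. Trachea gave 30, with 16 by weighted limma and 19 without both female pools.

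Directions turned in a few refits, of uncalled differences and of the called list genes Il4 in trachea and Slc26a4 in gall bladder. Il17rb in thymus was -0.11 with no filter, -0.02 with the 5 CPM filter, -0.07 without mitochondrial transcripts, -0.01 without both female pools and -0.21 to 0.08 leaving out 1 library. Il25 in thymus was -0.03 with no filter, -0.00 without mitochondrial transcripts and -0.36 to 0.33 leaving out 1 library, and in gall bladder -0.27 to 0.78. Il4 in trachea, called higher with all libraries (3.08, adjusted p = 0.0324 in edgeR), was -0.45 without both female pools. Leaving out 1 library gave -0.70 to 3.72 for it, the lowest without pool 3. Leaving out 1 library also gave -0.06 to 0.21 for Il17ra in thymus and -0.55 to 0.04 for Il17ra in trachea. For Il2rg in small intestine tuft against non-tuft it gave -0.07 to 1.49. Slc26a4 in gall bladder, called higher with all libraries (4.04, adjusted p = 0.0153 in edgeR), ran from -0.80 to 4.62, the lowest without gall bladder replicate 3. The log2 ratio of Il13ra1 to Il2rg in thymus ran from -0.22 to 0.16 and that of Il4ra to Il13ra1 in gall bladder from -0.42 to 0.85.

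Same-numbered libraries of different groups had deviations correlated at -0.12 to 0.214 over 45 pairs, 2 above 0.1, so the numbers were not taken as pairing. Small intestine tuft and non-tuft libraries shared 2 numbers. These correlations cannot exclude that libraries of different groups came from the same mice. Upper quartile scaling moved the median of all genes by 0.13 in small intestine and -0.12 in trachea, and DESeq2 by 0.11 in thymus. Il13ra2 and Il1rl1 rest on 0 to 24 counts per group outside thymus, where depth allows no ordering of tissues.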
